A study of Mus musculus with 60 samples.

Results

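Microglia and complement are represented here by 10 genes, taken by name from the 24508 rows of the deposited gene table: the C1q chain genes C1qa, C1qb and C1qc, the complement gene C3, and the microglial genes Cx3cr1, P2ry12, Tmem119, Csf1r, Trem2 and Aif1. All 10 were found, and each was followed in 18 RNA-seq libraries of frozen hippocampus. Wild-type (WT) mice gave 9 libraries and R6/1 mice another 9, all on the mixed CBA x C57BL/6 background, aged 30 weeks, and labelled as independent biological replicates. R6/1 is a Huntington's disease model that carries exon 1 of the human huntingtin gene with an expanded CAG repeat, driven by human huntingtin promoter sequence, in addition to the mouse gene. No cell type was sorted, so every value is a level in whole hippocampal tissue, where fewer cells of a type and less RNA per cell cannot be told apart.

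Microglia are the resident macrophages of the brain. They scan the tissue with motile processes, engulf debris, dying cells and synaptic material, and keep their identity and numbers through signals from neurons and other neighbours. C1q, made of the A, B and C chains, starts the classical complement cascade, in which C3 is the central protein that is cleaved onto targets and read by receptors on phagocytes. In the brain, C1q is made mainly by microglia and is known for marking synapses for removal.

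The libraries held between 12299434 and 16457022 reads on genes in WT and between 13260311 and 16736544 in R6/1, as recovered from the deposited RPKM (reads per kilobase of transcript, here scaled between libraries by size factors). Differences were tested with limma on log2(RPKM + 0.5) over the 14446 genes that averaged 0.5 RPKM or more, and a gene was called at an adjusted p under 0.05. The transgene is human, and mouse Htt, at 17.6 ± 1.69 RPKM in WT and 18.3 ± 1.72 in R6/1 (n = 9 each, SD), therefore does not check the genotype labels. WT replicate 5 stood apart: it was the highest WT library for 9 of the 10 genes, and it held 10.7 RPKM of the interferon-induced gene Ifit3 against 2.40 to 4.87 in the other WT libraries. The test of each of the 10 genes is therefore given with and without it. Of 37 other called genes that the naming rule gave, 1, Pdgfrb, lost its call without it. The tissue was checked with 32 further microglia markers, whose summed level lay between 243 and 379 RPKM in WT (median 274) and between 214 and 330 in R6/1 (median 252). Of 17 border macrophage and blood cell markers, 14 were below the filter, among them Lyve1, Ccr2 and Cd3e. The summed level of all 17 was 10.7 to 14.8 RPKM in WT and 10.7 to 18.6 in R6/1, and Ly6c2 alone averaged 9.30. Lyve1, on 4 to 28 reads and not tested, was at 0.202 ± 0.0586 in WT and 0.460 ± 0.136 in R6/1. For Lyve1, 8 of 9 R6/1 libraries lay above the highest WT library.

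The C1q genes form a compact cluster on chromosome 4 (mouse build NCBIM37, GENCODE vM1 annotation). C1qb (4:136436044-136442102), C1qc (4:136445719-136448980) and C1qa (4:136451832-136454718) follow each other on the minus strand within 18.675 kb, and no other annotated gene lies between them in that span. The bases before the starts of C1qb and C1qc, 2 genes whose levels moved together between libraries, are shown first, then those of Cx3cr1, P2ry12 and Trem2, which were lower in R6/1. Start sites are those of the RefSeq promoter table, which is made on GRCm38.p6. For C1qc only the 99 bases farthest from that start are printed, those before the GENCODE start, since the annotated gene begins upstream of the RefSeq start, and its match lies 193 bases before the RefSeq start. Each sequence was found once in NCBIM37 and has coordinates of that build. It is written 5′ to 3′ on the gene's own strand. Capitals mark GAGGAA, a core of sites for PU.1, the factor encoded by Spi1 that specifies macrophages, or its reverse complement TTCCTC.
C1qb (chr4:136442116-136442365, minus strand): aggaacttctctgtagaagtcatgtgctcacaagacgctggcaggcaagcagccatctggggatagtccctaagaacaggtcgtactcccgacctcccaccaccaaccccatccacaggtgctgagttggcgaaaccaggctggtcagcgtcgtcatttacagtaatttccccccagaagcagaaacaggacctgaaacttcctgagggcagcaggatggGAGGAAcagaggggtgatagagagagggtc
C1qc (chr4:136448981-136449079, minus strand): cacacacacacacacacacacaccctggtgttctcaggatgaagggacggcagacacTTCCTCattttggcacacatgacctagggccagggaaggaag
Cx3cr1 (chr9:119977415-119977664, minus strand): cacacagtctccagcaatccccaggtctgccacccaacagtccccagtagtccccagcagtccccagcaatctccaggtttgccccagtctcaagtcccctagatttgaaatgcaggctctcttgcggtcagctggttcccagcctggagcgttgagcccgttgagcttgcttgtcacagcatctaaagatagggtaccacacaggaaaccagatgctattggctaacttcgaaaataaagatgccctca
P2ry12 (chr3:59066908-59067157, minus strand): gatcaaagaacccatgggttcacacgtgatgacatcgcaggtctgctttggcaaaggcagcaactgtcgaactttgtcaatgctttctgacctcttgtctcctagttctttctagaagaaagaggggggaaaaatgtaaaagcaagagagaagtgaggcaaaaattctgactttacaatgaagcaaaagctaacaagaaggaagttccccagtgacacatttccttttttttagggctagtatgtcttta
Trem2 (chr17:48485476-48485725, plus strand): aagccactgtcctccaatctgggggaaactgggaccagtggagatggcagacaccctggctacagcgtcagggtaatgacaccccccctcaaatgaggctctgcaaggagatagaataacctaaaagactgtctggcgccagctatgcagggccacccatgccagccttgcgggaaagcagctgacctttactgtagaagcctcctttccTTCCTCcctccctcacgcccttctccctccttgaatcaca
The table held promoters of 7 of the 10 genes. GAGGAA, searched on both strands of the 250 bases before the start, was present in 4 of the 7 (C1qb, C1qc, Trem2 and Aif1), while 23.1% of all 27025 promoters in the table held it. The match lay 30 bases before the start in C1qb, on the gene's strand, and 40 bases before it in Trem2, on the other strand. The longer GAGGAAGT, which contains GAGGAA, was present in 1 of the 7, C1qc, and in 2.44% of all promoters. The printed stretches of Cx3cr1 and P2ry12 do not hold these letters. A match is a run of letters and no measured binding.

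Levels per length fell in the same order in both genotypes, from C1qa through C1qb, Csf1r, C1qc, P2ry12, Cx3cr1, Tmem119, Trem2 and Aif1 to C3. In WT the mean ran from 33.3 RPKM for C1qa to 5.63 for Aif1, with C3 far below at 0.882. C1qa stood at the 84.4th percentile of all tested genes by its mean over the 18 libraries, Cx3cr1 at the 65.0th and C3 at the 1.06th. Among neighbours in this order, the WT ranges were separate only for P2ry12 and Cx3cr1, Cx3cr1 and Tmem119, and Aif1 and C3. In R6/1 only Aif1 and C3 had separate ranges.

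**Figure D1:**
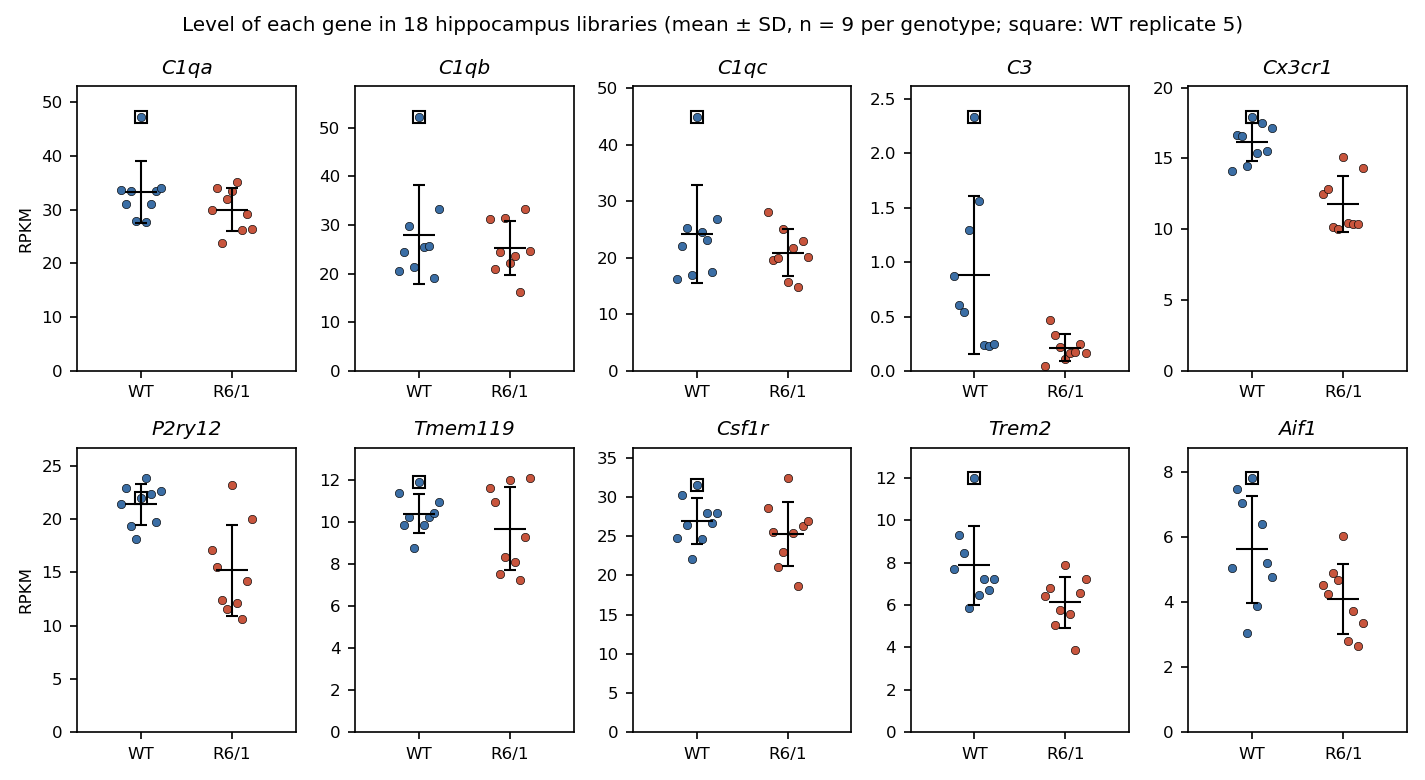
RPKM of each of the 10 genes (vertical axes, each from 0) in the 9 WT and 9 R6/1 libraries, with 1 point per library, bars for mean and SD, and a square around WT replicate 5. Cx3cr1 and P2ry12 sit lower in R6/1 with 7 of 9 libraries below every WT library, and the square is the top WT point in 9 of the 10 panels.

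R6/1 hippocampus held less Cx3cr1, P2ry12, Trem2, Aif1 and C3 mRNA than WT. The other 5 genes, which are the C1q chains, Tmem119 and Csf1r, did not pass the test. Of the 10 genes, 5 (50%) were called lower and 0 higher in the limma fit (also 0 higher at an unadjusted p under 0.05), where 23.5% of all tested genes were called lower, 24.8% higher and 48.3% in either direction. The median log2 change was -0.25 over the 10 genes and 0.00 over all tested genes. C3 passed the filter only through its WT level, and without it 4 of 9 genes were called lower. The mean of R6/1 was below that of WT for all 10 genes. In 0 of the 10 did every R6/1 library lie below every WT library, a separation that 6.38% of all tested genes showed (5.5% in the other direction). With WT replicate 5 left out, C3 dropped under the filter and 2 of the 9 genes still tested were called lower (22.2%), Cx3cr1 and P2ry12, where 22.8% of all genes in that fit were called lower. The authors' deposited table called the same 5 genes lower, where 20.4% of its genes with an adjusted p were called lower and 40.4% in either direction.

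The C1q chains assemble into 1 protein and were read separately. C1qa, the A chain, ran from 27.7 RPKM through a median of 33.4 to 47.3 in WT, and from 23.8 through 30.0 to 35.1 in R6/1. C1qb, the B chain, ran from 19.2 through 25.5 to 52.3 in WT, and from 16.2 through 24.4 to 33.2 in R6/1. C1qc, the C chain, ran from 16.2 through 23.1 to 45.0 in WT, and from 14.9 through 20.1 to 28.1 in R6/1. The genotypes overlapped for every chain, and WT replicate 5 was the highest of all 18 libraries for each. The log2 change was -0.14 for C1qa (SE 0.089, limma adjusted p = 0.198), -0.11 for C1qb (SE 0.162, limma adjusted p = 0.611) and -0.17 for C1qc (SE 0.158, limma adjusted p = 0.403). With WT replicate 5 left out these were -0.08, 0.01 and -0.05, so that the sign for C1qb turned.

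Within a library, the chains kept a similar proportion in both genotypes. C1qa over C1qb was 1.26 ± 0.276 in WT and 1.24 ± 0.311 in R6/1 (n = 9 each, SD). C1qb over C1qc was the tightest of the chain ratios, at 1.16 ± 0.0801 in WT and 1.21 ± 0.139 in R6/1, with all libraries between 1.04 and 1.44. C1qa over C1qc was 1.46 ± 0.347 and 1.48 ± 0.343. These ratios are descriptions and were not tested.

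C3, the protein on which the complement pathways converge, was barely expressed. Its level was 0.882 ± 0.723 RPKM in WT and 0.213 ± 0.125 in R6/1 (n = 9 each, SD), resting on 4 to 190 reads per library. WT libraries ran from 0.233 through a median of 0.609 to 2.34, and R6/1 libraries from 0.0474 through 0.170 to 0.466. WT replicates 1 to 6 lay above the highest R6/1 library, and WT replicates 7, 8 and 9, at 0.235, 0.233 and 0.250, lay within the R6/1 range. The mean fell by 75.9%, and the log2 fold change of RPKM + 0.5 was -0.81 (SE 0.230, limma adjusted p = 0.00625). The size of this fold rests on the pseudocount, with -1.40 at a pseudocount of 0.1, -0.55 at 1 and -1.83 from recovered reads with limma's voom. When WT replicate 5 was left out, or WT replicate 6, the mean of C3 dropped under the filter. Fitted with no filter, its log2 fold change was then -0.66 (limma adjusted p = 0.0140) and -0.72 (limma adjusted p = 0.0202).

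Markers of the choroid plexus, a tissue that lies against the hippocampus, varied widely between libraries. Ttr, the transthyretin gene, ran from 19.0 to 1035 RPKM in WT and from 33.4 to 1696 in R6/1. WT replicates 7, 8 and 9, with the lowest C3 of WT, also had the lowest Ttr of WT (19.5, 19.0 and 33.9). WT replicate 5, with the highest C3 of all (2.34), had 894 of Ttr. WT replicate 3 had the highest WT Ttr (1035) with 0.542 RPKM of C3, and WT replicate 4 had 112 of Ttr with 1.29 of C3. R6/1 replicate 1 had 375 of Ttr with the lowest C3 of all (0.0474). The summed level of the 8 choroid plexus markers was 26.7 to 1082 RPKM in WT (median 125) and 40.7 to 1756 in R6/1 (median 401). With the mean log2(RPKM + 0.5) of these 8 markers as a covariate, the log2 fold change of C3 was -0.87 (limma adjusted p = 0.000978). The part of choroid plexus tissue in the C3 value was not tested.

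Cx3cr1 encodes the receptor for fractalkine, a ligand that neurons present to microglia. It ran from 14.1 RPKM through a median of 16.6 to 18.0 in WT and from 10.0 through 10.4 to 15.1 in R6/1. Every R6/1 library lay below the WT median, and 7 of 9 lay below the lowest WT library. R6/1 replicate 5 (15.1) and R6/1 replicate 9 (14.3) were the 2 within the WT range. The mean fell by 27.0%, from 16.1 ± 1.34 to 11.8 ± 1.95 (n = 9 each, SD), with a log2 change of -0.45 (SE 0.078, limma adjusted p = 8.42e-05). It was -0.43 without WT replicate 5 (limma adjusted p = 0.000228).

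P2ry12 encodes a purinergic receptor for ADP that guides microglial processes towards injury. It ran from 18.1 RPKM through a median of 21.9 to 23.8 in WT and from 10.6 through 14.2 to 23.2 in R6/1. Again 7 of 9 R6/1 libraries lay below the lowest WT library, and R6/1 replicates 5 (23.2) and 9 (20.0) lay among the WT libraries. The mean fell by 28.9%, from 21.4 ± 1.88 to 15.2 ± 4.23, with a log2 change of -0.52 (SE 0.118, limma adjusted p = 0.00116). It was -0.51 without WT replicate 5 (limma adjusted p = 0.00227). The gene (3:59020193-59066753, minus strand) lies within Med12l on the opposite strand. Med12l was at 4.14 ± 0.464 RPKM in WT and 3.97 ± 0.427 in R6/1 (limma adjusted p = 0.543), and whether reads were counted by strand is not given in the sources used here.

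Tmem119 encodes a membrane protein used to tell microglia from other macrophages. It ran from 8.73 RPKM through a median of 10.2 to 11.9 in WT and from 7.24 through 9.28 to 12.1 in R6/1, with R6/1 libraries both below and above the WT range. Its log2 change was -0.12 (SE 0.095, limma adjusted p = 0.318), and -0.09 without WT replicate 5 (limma adjusted p = 0.451). Csf1r encodes the receptor through which CSF1 and IL-34 keep microglia alive. It ran from 22.1 through 26.7 to 31.6 in WT and from 18.6 through 25.5 to 32.4 in R6/1, again overlapping across nearly the whole range. Its log2 change was -0.10 (SE 0.086, limma adjusted p = 0.364), and -0.07 without WT replicate 5 (limma adjusted p = 0.540). Csf1r overlaps Hmgxb3 on the opposite strand, which was higher in R6/1 (10.4 ± 0.643 against 12.3 ± 0.661 RPKM, log2 change 0.24, limma adjusted p = 8.66e-05). The part of those reads in the Csf1r value was not tested.

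**Figure D2:**
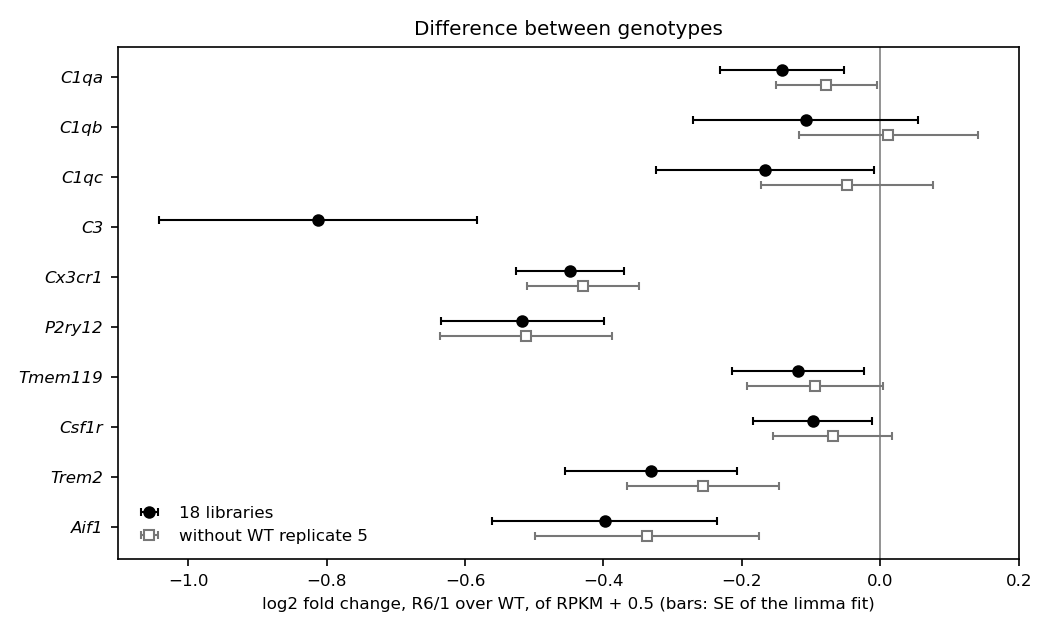
Log2 fold change of RPKM + 0.5, R6/1 over WT (horizontal axis), for each gene, with bars for the SE of the limma fit, from all 18 libraries (filled) and without WT replicate 5 (open). C3 has no open point because it drops under the filter, and the open points of Cx3cr1 and P2ry12 stay at -0.43 and -0.51 while those of the C1q chains lie between -0.08 and 0.01.

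Because a ratio of genes within 1 library does not depend on the scaling between libraries, Cx3cr1 and P2ry12 were set against Csf1r and Tmem119, a choice made after their values were seen. The genes above the line were chosen as called lower and those below it as not called, so the ratios describe that choice and carry no test. Cx3cr1 over Csf1r was 0.602 ± 0.0347 in WT and 0.469 ± 0.0552 in R6/1 (n = 9 each, SD), and 8 of 9 R6/1 libraries lay below the lowest WT library. The log2 difference was -0.37. P2ry12 over Csf1r was 0.798 ± 0.0818 and 0.594 ± 0.0889, with 7 of 9 R6/1 libraries below the lowest WT library and a log2 difference of -0.43. Cx3cr1 over Tmem119 was 1.56 ± 0.141 and 1.23 ± 0.114, a log2 difference of -0.34. P2ry12 over Tmem119 was 2.06 ± 0.208 and 1.56 ± 0.171, a log2 difference of -0.41. In each of the 4 ratios all 9 R6/1 libraries lay below the WT median, including R6/1 replicates 5 and 9, which had WT-like levels of P2ry12. A ratio shows unequal change and does not say which of the genes moved.

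**Figure D3:**
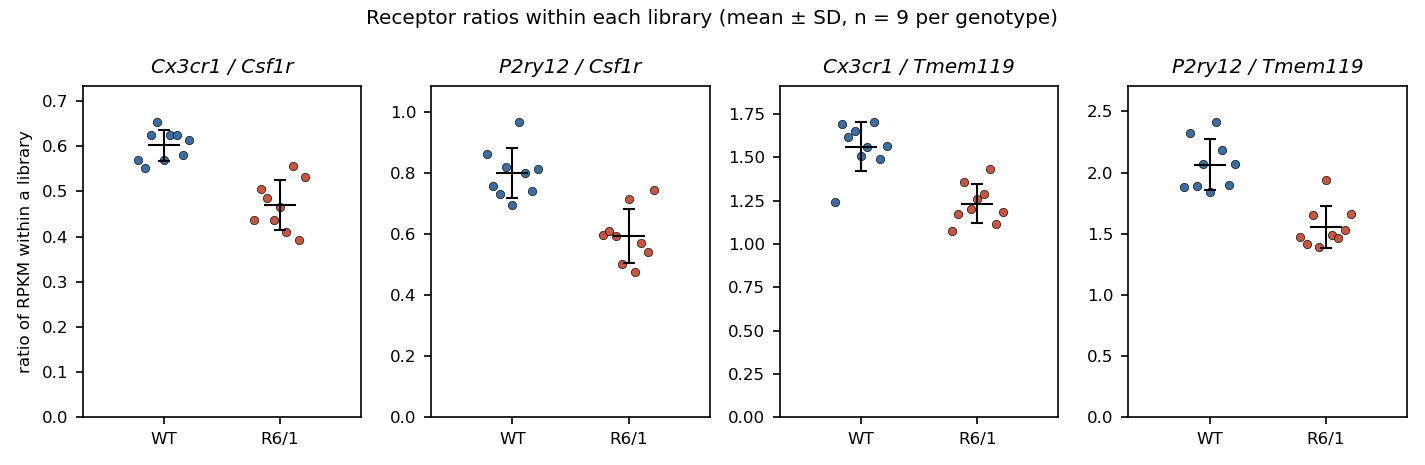
Ratio of RPKM of Cx3cr1 or P2ry12 to Csf1r or Tmem119 within each library (vertical axes, each from 0), with 1 point per library and bars for mean and SD (n = 9 per genotype). In each panel the R6/1 libraries sit lower, with 5 to 8 of 9 below the lowest WT library.

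Trem2 encodes a lipid-sensing receptor of microglia that signals through the adaptor encoded by Tyrobp. It ran from 5.86 RPKM through a median of 7.21 to 11.98 in WT and from 3.87 through 6.42 to 7.87 in R6/1, where 4 of 9 libraries lay below the lowest WT library. The mean fell by 22.1%, with a log2 change of -0.33 (SE 0.124, limma adjusted p = 0.0322). Without WT replicate 5 the call was lost (-0.26, limma adjusted p = 0.0631), as it was without WT replicate 2, WT replicate 3, R6/1 replicate 3, R6/1 replicate 6 or R6/1 replicate 7 (limma adjusted p 0.0519 to 0.0643). Tyrobp was at 19.8 ± 5.58 RPKM in WT and 15.7 ± 2.54 in R6/1, a log2 change of -0.30 that did not pass the test (limma adjusted p = 0.0531). It was called lower in 10 of 32 alternative runs.

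Aif1 encodes Iba1, the calcium-binding protein stained to show microglia in tissue. It ran from 3.05 RPKM through a median of 5.21 to 7.81 in WT and from 2.64 through 4.24 to 6.03 in R6/1, and 2 of 9 R6/1 libraries lay below the lowest WT library. The mean fell by 27.1%, with a log2 change of -0.40 (SE 0.162, limma adjusted p = 0.0486), close to the threshold. This call too was lost without WT replicate 5 (-0.34, limma adjusted p = 0.0948), and it held only when WT replicate 4, WT replicate 6 or R6/1 replicate 3, 4 or 5 was the library left out. Aif1 rested on 35 to 108 reads per library, for which counting error alone gives a coefficient of variation of 12.6%.

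The 10 genes did not vary as 1 block between libraries. After the mean of each genotype was removed, C1qb and C1qc had a Pearson r of 0.94 over 18 libraries, while C1qa had 0.51 with each of them. Leaving out WT replicate 5 gave 0.89, 0.14 and 0.12, so that the link of C1qa with its partner chains rested on that library. Cx3cr1, P2ry12, Tmem119 and Csf1r had r between 0.77 and 0.86 with each other, and between 0.75 and 0.87 without WT replicate 5. By genotype, Cx3cr1 and P2ry12 had r 0.41 in WT and 0.94 in R6/1, Cx3cr1 and Tmem119 had 0.39 and 0.91, and P2ry12 and Tmem119 had 0.40 and 0.93. Trem2 went with Csf1r at 0.87. The C1q chains and these 4 receptor and marker genes had r between 0.07 and 0.59. By genotype, C1qc and Cx3cr1 had r 0.81 among the 9 WT libraries and -0.25 among the 9 R6/1 libraries, and C1qb and Cx3cr1 had 0.76 and -0.15. Differences in r between the genotypes were not tested. C3 stood alone, with r from -0.15 to 0.30 with the other genes, and from -0.44 to -0.14 without WT replicate 5. All libraries share tissue and scaling, and the values are descriptions with no test.

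**Figure D4:**
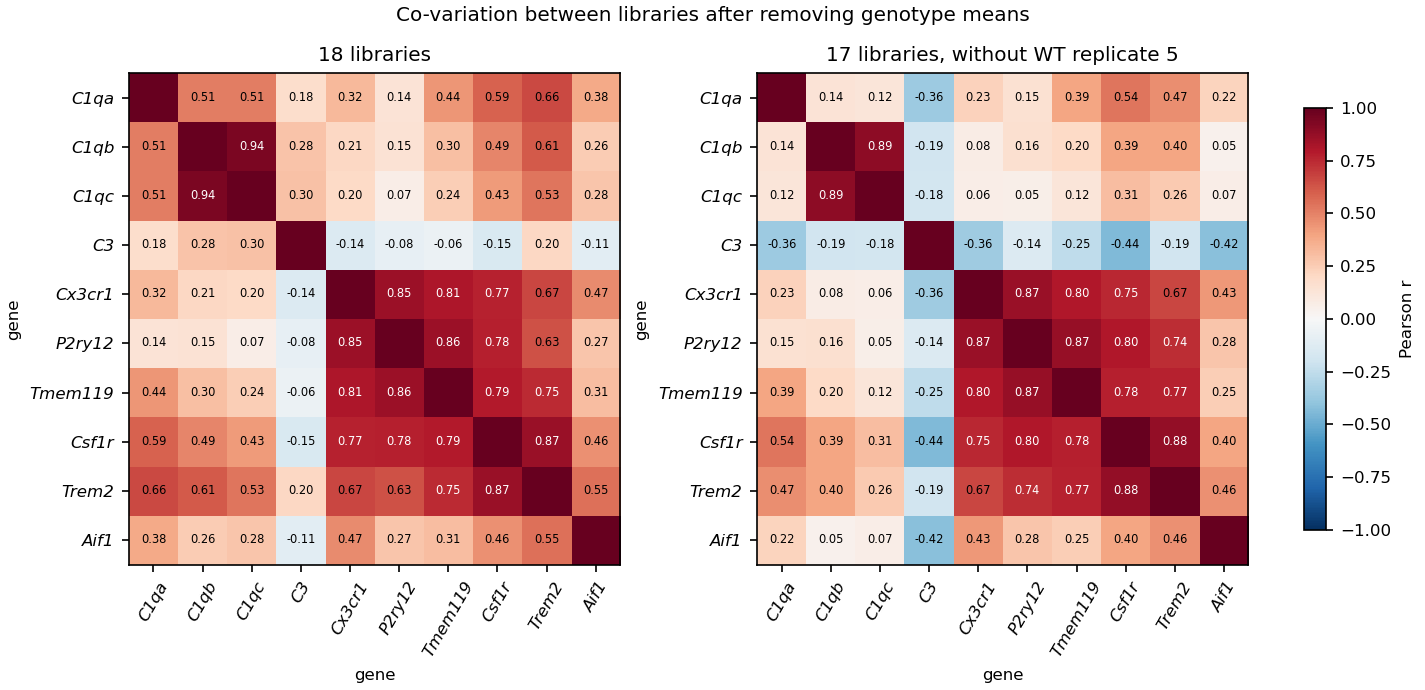
Pearson r of log2(RPKM + 0.5) between each pair of the 10 genes after genotype means were removed, in all 18 libraries (left) and without WT replicate 5 (right), on a colour scale from -1 to 1. C1qb with C1qc and the square of Cx3cr1, P2ry12, Tmem119, Csf1r and Trem2 keep high values in both panels, while C3 does not.

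Among 13096 other genes averaging 1 RPKM or more, those most like the mean of the 10 genes over the 18 libraries, again without genotype means, included Plxnb2 (r 0.90), Irf8 (0.88), Pqlc2 (0.86), Clec3b (0.86), Nfe2l2 (0.85), Mpeg1 (0.82), Ctsh (0.82), Ifit3 (0.82) and Tyrobp (0.82). On the log2 scale, WT replicate 5 deviated most from its genotype mean over the 10 genes (0.533), followed by R6/1 replicate 7 (-0.337). These r values were not computed without WT replicate 5, so how far they rest on it was not tested. Irf8 and Tyrobp are on the list of further microglia markers. Irf8, a transcription factor of microglia, was at 1.35 ± 0.436 RPKM in WT and 1.45 ± 0.166 in R6/1 (limma adjusted p = 0.466). Of the genes named here only Clec3b was called, lower in R6/1 (1.89 ± 0.655 against 0.829 ± 0.303 RPKM, limma adjusted p = 0.000132).

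In the rest of the complement system, 22 of 23 listed components were in the table and only 8 passed the filter. Of these 8, 1 rose (12.5%, against 24.8% of all tested genes) and 3 fell (37.5%, against 23.5%), with a median log2 change of -0.11. The components that fell were Cfb, the factor B protease of the alternative pathway (1.60 ± 0.372 to 0.772 ± 0.218 RPKM, log2 change -0.72, limma adjusted p = 3.27e-05), Cfp, encoding properdin, which stabilises the alternative pathway convertase (4.64 ± 0.816 to 2.77 ± 0.413, -0.65, limma adjusted p = 8.50e-06), and C8g (-0.33, limma adjusted p = 0.0159). Masp1, a protease of the lectin pathway, rose (0.25, limma adjusted p = 0.0235), a call lost with a replicate block (limma adjusted p = 0.0743) or library weights (limma adjusted p = 0.0543). C4b, a classical pathway component downstream of C1q, was at 10.8 ± 3.97 RPKM in WT and 12.1 ± 1.98 in R6/1 (0.19, limma adjusted p = 0.270). WT replicate 5 held 20.9 RPKM of it. C4b has a near-identical neighbour, C4a (2.82 ± 0.988 RPKM in WT), and how reads that fit both were counted is not given in the sources used here, so its value is uncertain. Leaving WT replicate 5 out, 3 of 8 components were called higher (37.5%, against 24.2% of all genes in that fit). C4b was among them (0.31, limma adjusted p = 0.00974).

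Of 14 tested complement regulators, 2 rose (14.3%, against 24.8% of all tested genes) and 3 fell (21.4%, against 23.5%), with a median of 0.04. Clu, encoding clusterin, which blocks the terminal pathway, fell from 572 ± 55.0 to 445 ± 44.7 RPKM (-0.36, limma adjusted p = 7.85e-05). Cd55, a surface inhibitor of convertases, fell by 0.30 on the log2 scale (limma adjusted p = 0.0139), as did the cofactor gene Cd46 by 0.39 (limma adjusted p = 0.0157). Sez6, a neuronal protein with complement control repeats, rose (0.26, limma adjusted p = 0.000117), as did Cr1l, which encodes the rodent inhibitor Crry (0.15, limma adjusted p = 0.0127). Of the complement receptors 3 were tested and 1 fell (33.3%, against 23.5% of all tested genes, median -0.22). The gene that fell was Itgam, encoding CD11b of complement receptor 3, at 6.79 ± 0.687 RPKM in WT and 4.26 ± 1.41 in R6/1 (-0.66, limma adjusted p = 0.000359). C3ar1, the receptor for the C3a fragment, was at 0.569 ± 0.199 and 0.531 ± 0.183 (-0.05, limma adjusted p = 0.747). Itgb2, the partner chain of CD11b, missed the threshold (-0.22, limma adjusted p = 0.0552) and was called when WT replicate 6, WT replicate 7, WT replicate 8 or R6/1 replicate 5 was left out, which made 2 receptors lower.

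Of the 31 tested further microglia markers, 1 rose and 9 fell (median -0.17), so that 29.0% fell against 23.5% of all tested genes. Fcrls, a receptor-like gene of mouse microglia, fell from 8.72 ± 2.40 to 4.97 ± 1.83 RPKM (-0.78, limma adjusted p = 0.00135). Cd68, a lysosomal protein of phagocytes, fell from 5.48 ± 1.46 to 3.09 ± 0.621 (-0.72, limma adjusted p = 7.63e-05). Fcgr3, an activating receptor for IgG, rose from 5.94 ± 0.970 to 7.97 ± 1.09 (0.40, limma adjusted p = 0.000916). Spi1, encoding PU.1, was at 1.57 ± 0.435 and 1.59 ± 0.445 (0.02, limma adjusted p = 0.932). Single libraries decide how this count stands to the background. Without WT replicate 5, 6 of 31 markers fell (19.4%, against 22.8% of all genes in that fit). Without R6/1 replicate 5, the library with WT-like P2ry12, 15 fell (48.4%, against 23.7%).

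Genes of microglial activation and lipid handling moved both ways, with 5 higher and 6 lower of 19 tested (median 0.01). These shares, 26.3% and 31.6%, stand beside 24.8% and 23.5% of all tested genes. Spp1, encoding osteopontin, rose from 2.71 ± 1.31 to 4.48 ± 1.88 RPKM (0.65, limma adjusted p = 0.0276), and the cathepsin gene Ctsl rose from 23.4 ± 1.32 to 31.5 ± 1.81 (0.42, limma adjusted p = 4.24e-08). Lpl, encoding lipoprotein lipase, fell from 25.1 ± 8.89 to 7.79 ± 3.41 (-1.68, limma adjusted p = 7.68e-06), and the growth factor gene Igf1 fell from 1.37 ± 0.150 to 0.690 ± 0.140 (-0.66, limma adjusted p = 9.34e-07). Several of these genes are also expressed by neurons and other brain cells. Spp1 lost its call without WT replicate 1, 3 or 7 or R6/1 replicate 3, 7 or 8 (limma adjusted p 0.0506 to 0.0574). The count that rose was 3 without WT replicate 1, WT replicate 3, WT replicate 7, R6/1 replicate 3 or R6/1 replicate 8.

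A list of ligands that neighbours offer to microglia and of brakes on microglia, which includes the receptor gene Sirpa, was tested at 8 genes. Of these, 2 rose (25%, against 24.8% of all tested genes) and 3 fell (37.5%, against 23.5%), with a median of -0.10. Cx3cl1, encoding fractalkine, the ligand of the Cx3cr1 receptor, fell from 201 ± 14.2 to 143 ± 10.9 RPKM (-0.49, limma adjusted p = 1.03e-07). Tgfb2, a TGF-beta ligand, fell from 16.0 ± 3.71 to 8.47 ± 1.69 (-0.87, limma adjusted p = 1.60e-05), and Sirpa, the receptor for the CD47 signal, fell by 0.17 on the log2 scale (limma adjusted p = 0.000313). Cd200, a neuronal ligand that restrains microglia, rose from 40.2 ± 3.06 to 53.1 ± 2.23 (0.40, limma adjusted p = 1.65e-07), and Cd47 rose by 0.16 (limma adjusted p = 0.00182). The Csf1r ligand genes did not pass the test: Csf1 was at 7.47 ± 1.07 and 7.53 ± 0.893 (0.01, limma adjusted p = 0.894), and Il34 at 21.2 ± 3.09 and 20.7 ± 2.36 (-0.03, limma adjusted p = 0.767).

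Of 20 inflammatory cytokines and sensors, 13 were below the filter, including Il1b, Tnf and Il6. Of the 7 tested, 3 rose (42.9%, against 24.8% of all tested genes) and 3 fell (42.9%, against 23.5%), with a median of 0.31. Nfkbia, an inhibitor induced by NF-kappaB, rose from 11.2 ± 2.00 to 15.5 ± 2.85 RPKM (0.45, limma adjusted p = 0.00195), and the adaptor gene Myd88 rose by 0.35 (limma adjusted p = 0.00794), as did the sensor gene Tlr7 (0.31, limma adjusted p = 0.0103). Ptgs2, encoding cyclooxygenase 2, which neurons also express, fell from 8.51 ± 2.47 to 2.01 ± 0.533 (-1.83, limma adjusted p = 3.06e-09). Il18 fell from 14.5 ± 1.06 to 9.48 ± 1.63 (-0.60, limma adjusted p = 3.36e-06), and Il1r1 fell by 0.54 on the log2 scale (limma adjusted p = 0.000161). Of 18 interferon and antigen presentation genes, 6 rose (33.3%, against 24.8% of all tested genes) and 0 fell (against 23.5%) in the limma fit (median 0.17), and 0 were lower at an unadjusted p under 0.05. Irf7, an interferon regulatory factor, rose from 1.03 ± 0.749 to 2.34 ± 0.388 (0.99, limma adjusted p = 0.000105), and Ifit1 from 0.967 ± 0.771 to 1.50 ± 0.347 (0.55, limma adjusted p = 0.0226). Ifit1 was not called in the authors' deposited table (DESeq2 adjusted p = 0.0700). Without WT replicate 5, which held 2.93 RPKM of Irf7, 10 of these genes were called higher (55.6%, against 24.2% of all genes in that fit).

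Markers of other hippocampal cells were counted in the same way, where 23.5% of all tested genes were called lower and 24.8% higher. Of 9 neuron markers 9 fell (100%, median -0.31), and of 8 astrocyte markers 7 fell (87.5%, median -0.45). Of 9 oligodendrocyte markers 4 fell (44.4%, median -0.16). Of 8 endothelial and pericyte markers 2 fell (25%, median -0.14), a share near that of all tested genes. In each of these lists 0 were higher, also at an unadjusted p under 0.05. The endothelial and pericyte count was 1 without WT replicate 2, 5 or 8 or R6/1 replicate 2, 3 or 4, and 4 without WT replicate 1. The summed neuron markers ran from 2703 to 3221 RPKM in WT and from 1854 to 2097 in R6/1. The summed astrocyte markers ran from 878 to 1152 and from 605 to 882. Of the choroid plexus markers 0 of 8 were called in either direction by limma, by voom or in the authors' deposited table, and 0 had an unadjusted p under 0.05. A list of C1q-related genes outside complement, among them synaptic organisers of neurons with a C1q domain, was tested at 8 genes. Of these, 1 was higher (12.5%, against 24.8% of all tested genes) and 4 were lower (50%, against 23.5%). The higher one was C1qbp, a C1q-binding protein that has no C1q domain (0.16, limma adjusted p = 0.00212). C1ql2 fell from 25.9 ± 8.19 to 5.56 ± 1.37 RPKM (-2.08, limma adjusted p = 1.10e-08). The part of these shifts in the microglial values was not tested.

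**Figure D5:**
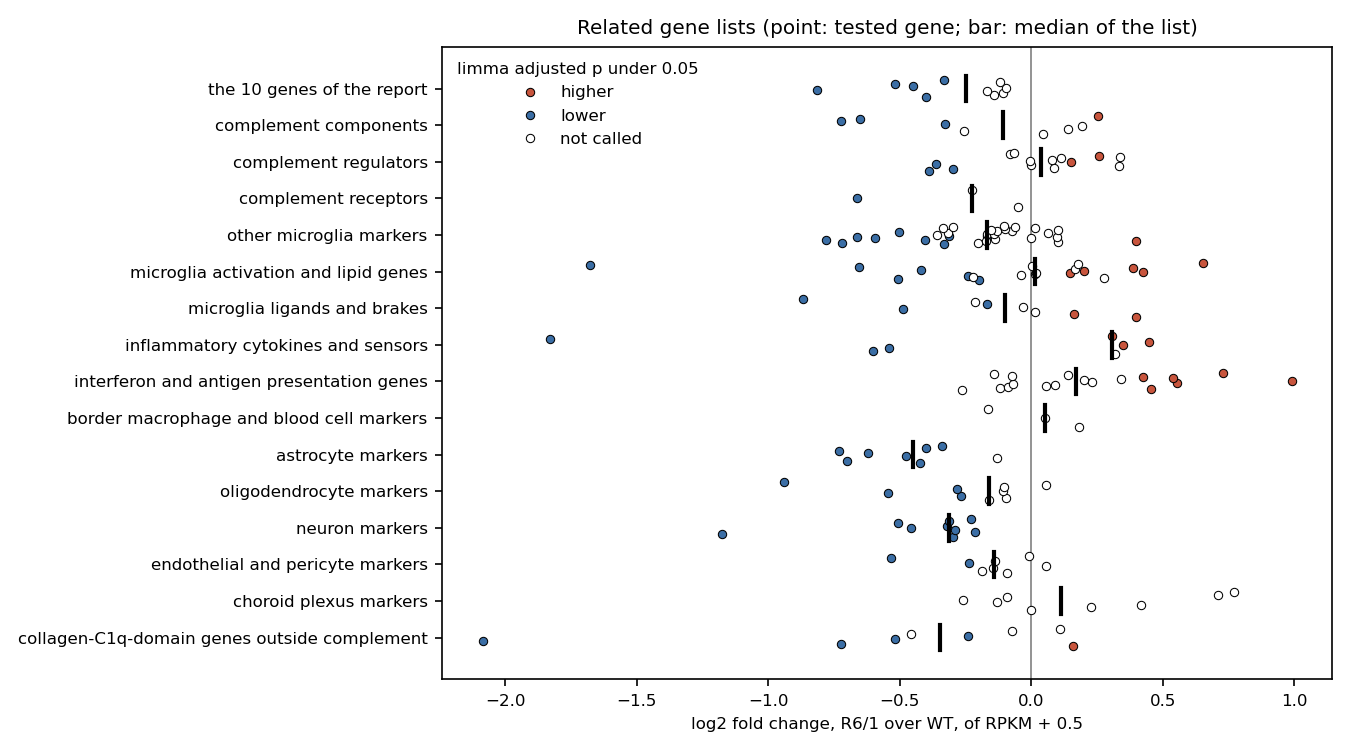
Log2 fold change of RPKM + 0.5, R6/1 over WT (horizontal axis), for every tested gene of the 10 genes and of each related list (rows), with filled points for genes called higher or lower, open points for the others, and a bar at each list's median. The 10 genes lie at or left of 0, with a median of -0.25, while activation genes spread to both sides.

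Lamin B1 lines the inner nuclear membrane, and the domains it touches usually hold silent genes. The deposited domains, from chromatin of 5 pooled hippocampi per replicate, are 1 list per genotype, 145 domains in WT and 166 in R6/1, so no difference was tested. Of the 10 genes, 0 started in or overlapped a domain in either genotype, while 13.1% of 12951 tested genes started in a WT domain and 8.03% in an R6/1 domain. P2ry12 lay closest, 0.0222 Mb from a domain that began at 3:59089001 in both lists. C3 (17:57343397-57367559, minus strand) lay 0.130 Mb from a domain in WT and 0.204 Mb in R6/1. Cx3cr1 (9:119957811-119977400, minus strand) lay farthest, 25.7 Mb away in WT and 25.5 Mb in R6/1. Lmnb1, the lamin B1 gene, was at 2.62 ± 0.247 RPKM in WT and 2.84 ± 0.183 in R6/1 (limma adjusted p = 0.141).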

How the data were processed

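RNA of 9 WT and 9 R6/1 hippocampi was analysed, with libraries grouped by the genotype in their labels. The authors deposited RPKM per gene symbol and a table of their comparison with a mean normalized count (a signal per gene), a log2 fold change, a test score and p-values. TopHat, DESeq2 and the build mm9 are named in the submitters' processing notes; versions, counter, annotation and strand use are not given in the sources used here. Lamin B1 domains were deposited per genotype by the authors, with Bowtie and mm9 named in the submitters' processing notes. ATAC-seq was not used here. The RPKM were scaled by size factors, and dividing by the step of 1 read gave whole reads (tolerance 0.05) for 99.9% of values in each library. No column of per-sample values was left out (0 unused).

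Genes averaging 0.5 RPKM or more entered limma 3.58.1 (R 4.3.3) on log2(RPKM + 0.5), with a mean-variance trend and Benjamini-Hochberg adjustment over 14446 genes, threshold 0.05, two-sided. The script was tested on simulated data. Ratios within a library are descriptions. The members and lists were chosen with earlier results of these data known. Named were all 10 genes, a few set genes (among them Htt, Spi1 and Itgam), up to 2 risers and 2 fallers with a mean of at least 1 RPKM per list, and the 10 genes most like the mean of the members. Some genes that these rules name are not reported here. C8g, Cd46, Itgb2, Sirpa, Tlr7, Il1r1, the opposite-strand neighbours, Ttr and genes below the filter were named after their values were seen. Alternatives covered the filter, pseudocount, scaling, model, covariates and leaving out each library. For the 10 genes they also held an exact permutation test with no adjustment.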

Additional observations from a re-analysis of the deposited data

Results flagged for a closer look

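WT replicate 5 lay far above the other WT libraries for the C1q chains. C1qa was at 47.3 RPKM there, and the next WT library was at 34.1, a gap of 0.676 of the whole WT range. C1qb was at 52.3 RPKM against 33.3 in the next library (0.574 of the range). C1qc was at 45.0 RPKM against 27.0 (0.626 of the range). With 9 libraries a gap above 0.493 of the range stands out. Chance gives about 1 such gap among the 20 groups examined (10 genes in 2 genotypes), where 3 were seen. The chains had r of 0.71 to 0.98 with each other in WT, so the 3 gaps are not independent of each other. All 3 lay in WT replicate 5. The same library held 185 RPKM of Gfap, 20.9 of C4b and 10.7 of Ifit3, the highest WT value of each, while the mean of the other 8 WT libraries was 103, 9.58 and 3.47.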

How the results depend on the processing

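The count of the 10 genes called lower was 5. It was 3 with no filter on low values and 3 when libraries were scaled by their own total of reads, and it ran from 2 to 5 when 1 library was left out. It was 2 without WT replicate 5 and 3 without WT replicate 2, WT replicate 3, R6/1 replicate 6 or R6/1 replicate 7. In every alternative run Cx3cr1 (log2 fold change -0.49 to -0.38) and P2ry12 (-0.60 to -0.45) kept their calls, as did C3 wherever it passed the filter (-1.83 to -0.55). Trem2 lost its call in 8 of 33 alternatives, among them no filter (limma adjusted p = 0.0503) and own totals (limma adjusted p = 0.0862), with adjusted p from 0.00870 to 0.0862 over all. Aif1 lost its call in 21 of 33, with adjusted p from 0.0106 to 0.0972. For each of the 10 genes, 1 alternative was an exact permutation test of that gene alone, with no adjustment. Trem2 (exact permutation p = 0.0219) and Aif1 (exact permutation p = 0.0426) kept their calls there. No gene that was called changed direction. The C1q chains, Tmem119 and Csf1r were called in none of their 33 alternatives, the authors' deposited table included. Scaling by own totals gave 5110 genes higher and 2526 lower over the whole table, against 3586 and 3394, and a median of 0.07. Counts over the related lists stayed within 1.5 times in 914 of 960 comparisons. Some of the other 46 rest on a changed number of tested genes. Complement components lower was 5 of 20 with no filter and 1 of 4 at a minimum mean of 2 RPKM. It was 6 of 18 in the authors' deposited table (3 of 8 in the main analysis). Complement regulators lower was 1 of 11 at that minimum (3 of 14). Complement receptors lower was 2 with library weights, with voom, with no trend, with an Xist covariate or with the block (1). Interferon and antigen presentation genes higher was 2 at that minimum, where fewer of them were tested, and 3 in the authors' deposited table (6). The rest changed by 1 or 2 genes or came from leaving out 1 library.

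Whether replicate numbers pair the libraries was not tested, and the main analysis treated them as unpaired. Of 9 same-numbered pairs, 3 had a correlation over 0.1 (range -0.05 to 0.237), and 2 of 9 were best with their own number. These values do not settle the question. With a replicate block, 5 of the 10 genes were lower. The limma adjusted p was then 0.0149 for Aif1 and 0.00870 for Trem2, against 0.0486 and 0.0322 in the main analysis. Masp1 (limma adjusted p = 0.0743) and Spp1 (limma adjusted p = 0.0649) lost their calls with the block.

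Depth limits C3 (4 to 190 reads) and Aif1 (35 to 108 reads), and whole tissue does not separate cell number from RNA per cell.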

Other observations

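The genes most like C3 between libraries, a list drawn up after its values were seen, were led by Acta2 (r 0.78 with C3 over 18 libraries, genotype means removed), an actin of smooth muscle, and Tmem212 (r 0.75). Ccdc153 (r 0.71), at 1.93 ± 1.36 RPKM in WT and 0.625 ± 0.298 in R6/1 (n = 9 each, SD), fell with a limma adjusted p of 0.00405. Npr1 (r 0.71), the receptor for atrial natriuretic peptide, fell from 1.80 ± 0.595 to 0.656 ± 0.0723. The other 8 of the 10 genes were not called, so 2 of 10 were lower, where 23.5% of all tested genes were. None of the 10 genes most like C3 was among the 10 most like the mean of the 10 microglia and complement genes. The r values with C3 were not computed without WT replicate 5, which held the most C3 (2.34 RPKM).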
